A study of Mus musculus with 21 samples.

Results

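The step from multipotent progenitor 4 (MPP4) to common lymphoid progenitor (CLP) in Etv6 mutant mice was described from 8 of the 21 RNA-seq libraries of a mouse bone marrow study, 4 of mutant MPP4 and 4 of mutant CLP. The 8 libraries were chosen by their labels, and no expression value entered the choice. The study sorted 3 progenitor populations from wild-type mice and from mice homozygous for a mutation of Etv6, whose product represses transcription and belongs to the ETS family. The labels write the mutant genotype as ETV6 mt/mt, and the series describes the allele as h.P214L, carried by every mutant library used here. The 6 wild-type libraries of the same populations, 3 of MPP4 and 3 of CLP, served as the reference for whether mutant cells changed more or less over the step. MPP4 were sorted as lineage-negative cells positive for cKit, Sca1 and Flk2, and CLP as lineage-negative cells labelled IL7+ and Flk2+ with low cKit and low Sca1. Mutant MPP4 came from 3 females and 1 male, of which 1 was 10 weeks and 3 were 12 weeks old, and mutant CLP from 3 females and 1 male, of which 2 were 10 weeks and 2 were 12 weeks old. Wild-type MPP4 and wild-type CLP each came from 2 females and 1 male, of which 1 was 10 weeks and 2 were 12 weeks old. The fit behind the p-values also held 4 mutant and 3 wild-type libraries of the haematopoietic stem cell (HSC) population. Mutant HSC came from 3 females and 1 male, 1 of 10 weeks and 3 of 12 weeks. Wild-type HSC came from 2 females and 1 male, 1 of 10 weeks and 2 of 12 weeks. The libraries of a group are labelled as separate mice, and p-values rest on a spread between mice pooled over all 21 libraries.

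MPP4 cells are multipotent progenitors that express the cytokine receptor Flt3 (Flk2) and are biased toward lymphoid fates. CLP cells additionally carry the interleukin-7 receptor, whose signal they depend on, and they give rise to B cells, T cells, NK cells, innate lymphoid cells and some dendritic cells. Along the way cells shut down stem cell and myeloid programmes, begin to express the recombination enzymes that cut antigen receptor genes, and start the B-lineage programme under the transcription factors E2A (Tcf3), Ebf1 and Foxo1.

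Values are RPKM, the reads of a gene per kilobase of transcript scaled to the mapped reads of the library. The total depth behind them is unknown, so no counting interval can be given. In the 8 mutant libraries, 10491 to 11080 genes reached an RPKM of 1, the median gene lay at 12.0 to 13.1 RPKM, and 2 to 74 genes were at 0. Libraries of one population correlated at 0.965 to 0.989 over genes and libraries of different populations at 0.927 to 0.958 (Pearson's r on log2 values). Mutant CLP replicate 4 lay nearest to MPP4 of the CLP libraries over the genes of the wild-type step. It also had the highest summed RPKM of the neutrophil and monocyte gene lists, 4111 and 1429. Mutant CLP replicate 2 was the next of the CLP, at 3670 and 1142. Mutant CLP replicate 1 stood apart by low haemoglobin RNA, and mutant MPP4 replicate 1 by high platelet RNA.

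A gene was kept when it reached 1 RPKM in at least 3 of the 8 mutant libraries, which left 11082 of 11628 genes. Changes are differences of mean log2(RPKM + 1), CLP minus MPP4, which understate the change of low genes. They were tested with limma over all 21 libraries, and p-values were adjusted with the Benjamini-Hochberg method over the 11082 genes. A gene was called at an adjusted p under 0.05, and rose or fell is written of called genes. Of the genes tested, 2744 (24.8%) were called in the mutant step, 904 (8.16%) higher and 1840 (16.6%) lower in CLP. Of these, 219 (1.98% of genes tested) rose and 427 (3.85%) fell by at least 1 on the log2 scale. In 1036 genes (9.35%) every mutant CLP library lay above every mutant MPP4 library, and in 1827 (16.5%) every one lay below. The split depended on scaling: 32.9% of calls were higher in CLP as deposited, against 47.4% after median-ratio scaling and 46.4% after quantile normalization. Median-ratio scaling moved the median over all genes from -0.06 to 0.01 on the log2 scale. Without CLP replicate 4, 2777 genes were called, 846 higher and 1931 lower.

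Etv6 itself (chr6:134035700-134270158, mouse genome GRCm38) was read in every library, and since an amino acid change need not alter the level of the transcript, its RPKM does not check the genotype. It was at 87.1, 81.1, 83.3 and 88.8 RPKM in mutant MPP4 and 72.2, 65.3, 62.0 and 62.6 RPKM in mutant CLP, replicates 1 to 4 in that order here and below. Every CLP library lay below every MPP4 library, a fall of 0.37 ± 0.08 on the log2 scale (SE, limma adjusted p = 0.00087). The wild-type step was -0.35, and the 2 steps differed by -0.03 ± 0.12 (limma adjusted p = 0.999).

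The genes of the sorting gate checked the labels, and their direction was set by the sort. Kit, the stem cell factor receptor (chr5:75574987-75656722), was at 173, 195, 171 and 164 RPKM in MPP4 and 44.9, 43.8, 33.0 and 35.3 RPKM in CLP. Il7r, the interleukin-7 receptor alpha chain (chr15:9506159-9529941), was at 6.83, 5.94, 9.02 and 6.57 RPKM in MPP4 and 92.9, 81.1, 104 and 81.5 RPKM in CLP. Both genes separated the populations without overlap, Kit downward and Il7r upward, as the gates select. Flt3, positive in both gates, stood at 360 to 403 RPKM in MPP4 and 362 to 403 RPKM in CLP, a difference of -0.01 ± 0.11 (limma adjusted p = 0.968). Ly6a, which encodes Sca1, fell by 1.34 ± 0.29 (limma adjusted p = 0.00133), and Cd34 fell by 1.02 ± 0.11. Of the CLP markers Dntt, Ly6d, Rag1 and Rag2 were all far higher in CLP than in MPP4, as given below. Cd27, a co-stimulatory receptor also taken as a CLP marker though common to both cell types, went the other way. It was at 113 to 131 RPKM in CLP and 136 to 152 RPKM in MPP4 and fell by 0.27 (limma adjusted p = 0.00632). Of the remaining surface markers Cd38 rose by 0.90 ± 0.23, Slamf1 differed by -0.65 ± 0.26 with no call (limma adjusted p = 0.0808), and Cd48 rose by 0.46 ± 0.16 (limma adjusted p = 0.0345), a call lost when any 1 library other than MPP4 replicate 1 or 2 was left out. Satb1, a chromatin organiser used as an MPP4 marker, went against that use at 50.1 to 69.0 RPKM in MPP4 and 71.3 to 98.1 RPKM in CLP (0.48 ± 0.16, limma adjusted p = 0.0328), and its call was lost without any 1 of 5 libraries.

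The genes that rose most were led by Ly6d. This gene, a surface protein that marks the CLP committed to the B lineage, was at 8.94, 21.8, 6.93 and 7.82 RPKM in mutant MPP4 and 716, 1114, 706 and 417 RPKM in mutant CLP. Replicate 2 was highest in both populations and CLP replicate 4 lowest of the CLP, far above all MPP4. The change was 5.96 ± 0.47 on the log2 scale (limma adjusted p = 9.1e-09), beside 5.53 in wild type. Siglech, a lectin of plasmacytoid dendritic cells, was at 0.621, 1.89, 0.391 and 2.66 RPKM in MPP4 and 87.4, 58.3, 77.8 and 47.9 RPKM in CLP. It was low in every MPP4 library and abundant in every CLP library (4.92 ± 0.29, limma adjusted p = 1.45e-10; wild type 4.46). Tmem119, known as a microglial surface marker, was at 4.53, 3.73, 2.73 and 1.72 RPKM in MPP4 and 107, 97.3, 105 and 84.4 RPKM in CLP, again with no overlap (4.62 ± 0.20; wild type 3.54). Further down the same ranking were Tnni1, a troponin subunit (3.70 ± 0.35), Ly86, the partner of the Toll-like receptor homologue RP105 (3.61 ± 0.25), Colq, a collagen-like anchor of acetylcholinesterase (3.42 ± 0.24), and Epha2, an ephrin receptor (3.22 ± 0.26). The plot of the most changed genes shows the 4 libraries of each population for both ends of the ranking.

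**Figure D1:**
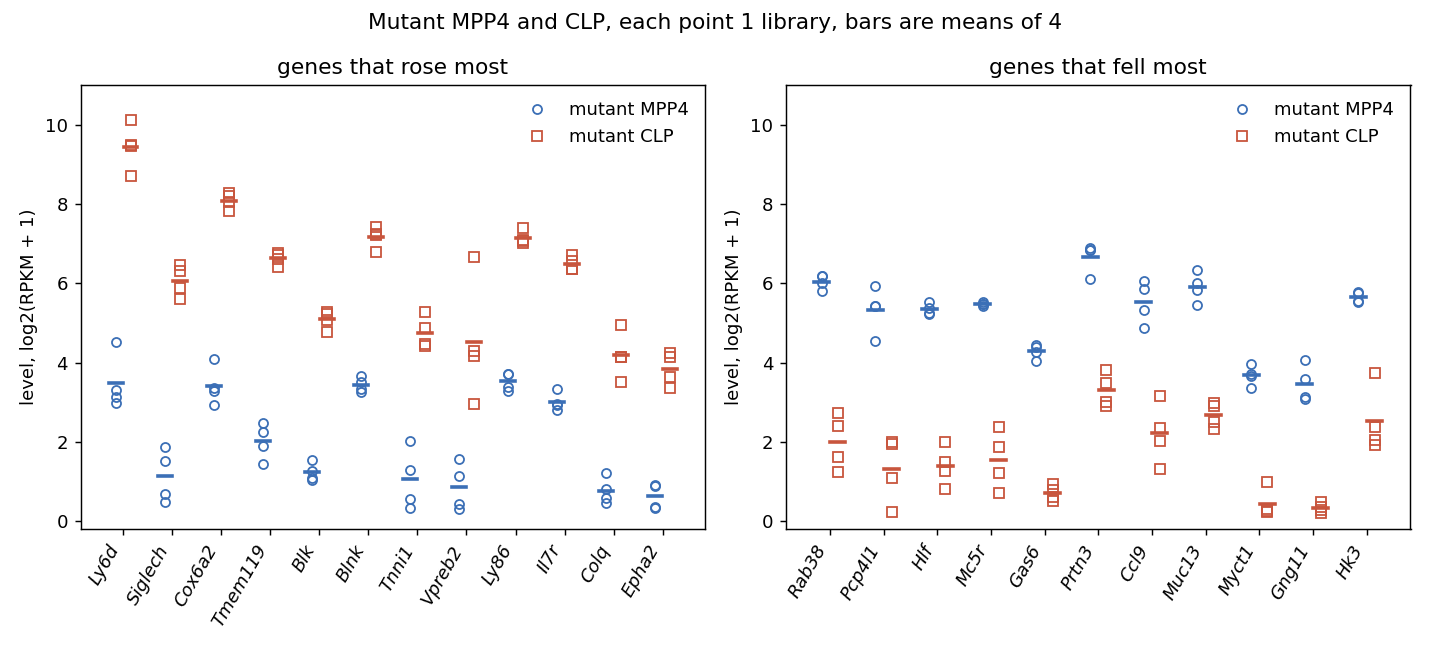
Level of the 12 genes that rose most (left) and 11 of the 12 that fell most (right) in the mutant step, on a log2(RPKM + 1) axis. Each circle is 1 mutant MPP4 library and each square 1 mutant CLP library, with bars at the means of 4; in all 23 genes shown the populations do not overlap, and Ly6d reaches 417 to 1114 RPKM in CLP.

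Pre-B receptor and B-cell signalling genes moved mostly upward. Of 29 kept members 16 were called higher, 1 lower and 12 not called, with a median change of 0.43 beside -0.06 over all genes tested. The counts on this and the other lists can be read against 8.16% higher and 16.6% lower over all genes tested. Blnk, the adaptor that links the pre-B receptor to its downstream enzymes, was at 10.4, 9.02, 11.7 and 8.58 RPKM in MPP4 and 169.8, 147, 152 and 109 RPKM in CLP. Blk, a B-cell kinase related to Src (chr14:63372837-63417187), was at 1.14, 1.42, 1.91 and 1.08 RPKM in MPP4 and 32.8, 37.9, 36.2 and 26.4 RPKM in CLP. Both genes were low in every MPP4 library and lowest among the CLP in replicate 4. Blnk rose by 3.72 ± 0.19 (limma adjusted p = 2.28e-11) and Blk by 3.85 ± 0.22 (limma adjusted p = 9.1e-11). Inpp5d, the inositol phosphatase SHIP1 that restrains this signal, rose by 0.46 ± 0.07. Vav3, an exchange factor of antigen receptor signalling, was the single member that fell, by 0.81 ± 0.13.

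The surrogate light chain and its partners varied more between the CLP libraries. Vpreb2, a part of the surrogate light chain that pairs with the new heavy chain, was at 0.245, 1.98, 1.20 and 0.354 RPKM in MPP4 and 16.8, 99.7, 18.6 and 6.73 RPKM in CLP. CLP replicate 2 was several times above the others and replicate 4 the lowest, yet all lay above the MPP4 (3.65 ± 0.58, limma adjusted p = 6.75e-05). The same order of high and low CLP library held for genes singled out after their values were seen. Cd79a, the signalling chain of the B-cell receptor, was at 26.8, 92.3, 32.3 and 16.0 RPKM in CLP against 1.38 to 5.60 RPKM in MPP4. Igll1, the other part of the surrogate light chain, was at 10.2, 43.2, 9.93 and 1.94 RPKM in CLP against 0.240 to 2.32 RPKM in MPP4, so replicate 4 overlapped the MPP4 range there. Ebf1, the transcription factor that specifies the B lineage, was at 3.85, 10.5, 4.31 and 2.15 RPKM in CLP against 0.260 to 0.740 RPKM in MPP4. Each of these rose in the fit, Cd79a by 3.04 ± 0.50 (wild type 4.22), Igll1 by 2.70 ± 0.54 (wild type 3.44) and Ebf1 by 1.89 ± 0.28 (wild type 2.31). The difference from the wild-type step was not called for any of the 3. Mzb1, a chaperone of B and plasma cells, followed the same pattern at 14.2, 43.2, 14.5 and 7.26 RPKM in CLP against 0.924 to 2.03 RPKM in MPP4.

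Antigen receptor recombination and end joining genes included the recombinase among those that rose. Of 16 kept members 5 rose, 1 fell (2 without MPP4 replicate 1 or CLP replicate 4) and 10 were not called, with a median change of 0.19. Rag1, one subunit of the recombinase (chr2:101638252-101649532), was at 0.110, 1.21, 1.55 and 0.377 RPKM in MPP4 and 10.6, 24.04, 10.7 and 6.88 RPKM in CLP. Rag2, the other subunit, was at 6.45, 7.73, 11.1 and 7.25 RPKM in MPP4 and 41.0, 57.9, 58.1 and 38.6 RPKM in CLP. Rag2 was thus already present in MPP4, and Rag1 nearly absent there, while both lay higher in every CLP library. Rag1 rose by 2.90 ± 0.31 (limma adjusted p = 5.01e-07) and Rag2 by 2.45 ± 0.19 (limma adjusted p = 8.61e-09). Dntt, the polymerase that adds untemplated bases at the joints, was at 482 to 595 RPKM in MPP4 and 1488 to 1881 RPKM in CLP and rose by 1.65 ± 0.18. The 2 subunits of the Ku end-joining complex moved in opposite directions: Xrcc6 (Ku70) was at 64.1 to 67.0 RPKM in MPP4 and 127 to 171 RPKM in CLP, and Xrcc5 (Ku80) at 21.04 to 29.3 RPKM in MPP4 and 16.3 to 19.8 RPKM in CLP. Xrcc6 rose by 1.15 ± 0.09 and Xrcc5 fell by 0.47 ± 0.10 (limma adjusted p = 0.00196), and the wild-type steps were 0.92 and -0.44.

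The lymphoid transcription factors were called higher more often than lower, 16 against 5 of 33 kept, with a median of 0.48 (3 lower after quantile normalization). Irf8, needed for dendritic and B-cell development, was at 25.5, 22.6, 31.7 and 32.8 RPKM in MPP4 and 195, 165, 185 and 168 RPKM in CLP, a change of 2.63 ± 0.14 (limma adjusted p = 2.98e-11). Ikzf1 (Ikaros), which primes lymphoid genes, was at 32.8 to 34.7 RPKM in MPP4 and 49.0 to 52.2 RPKM in CLP, and Myb, needed for early B-lineage growth, at 112 to 117 RPKM and 163 to 181 RPKM. These 3 factors had no overlap between the populations. Ikzf1 rose by 0.58 ± 0.06 and Myb by 0.59 ± 0.07. Ets1, an ETS-family factor of lymphocytes, rose by 1.12 ± 0.13, Spib, an ETS factor of B cells and plasmacytoid dendritic cells, by 2.05 ± 0.29, and Tcf3 (E2A) by 0.35 ± 0.08; these 3 were singled out after their values were seen. Among those that fell were Ikzf2 (Helios), by 1.53 ± 0.20, and Spi1 (PU.1), the ETS factor whose high dose favours myeloid fates, by 0.54 ± 0.08.

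Lymphoid cytokine receptor signalling was split, with 4 of 20 kept members higher, 7 lower and 9 not called (median -0.11, and -0.18 without MPP4 replicate 2). Beside Il7r the members that rose were Il2rb, Il18r1, the interleukin-18 receptor (1.22 ± 0.17), and Socs2, an inhibitor of cytokine receptor signalling. Socs2 was at 1.49 to 2.43 RPKM in MPP4 and 9.94 to 28.3 RPKM in CLP and rose by 2.67 ± 0.27 (limma adjusted p = 3.12e-07). The members that fell included Jak3, the kinase bound to the common gamma chain, from 49.1 to 60.5 RPKM in MPP4 to 29.9 to 37.8 RPKM in CLP (fell by 0.65 ± 0.08). Crlf2, the receptor subunit for thymic stromal lymphopoietin, fell by 0.45 ± 0.10 and Il15ra by 1.18 ± 0.16. The receptor chain that defines the gate therefore rose in the same libraries in which Il2rg, the common gamma chain of that receptor, fell. Several genes of the downstream pathway (Jak1, Jak3, Stat5a and Stat5b) fell there as well.

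Of the T, NK and innate lymphoid genes that were kept, 11 of 20 rose and 2 fell (median 0.58). The list holds 37 genes, of which 23 were among the deposited genes. Cd3e, Cd3d, Cd3g, Bcl11b, Ptcra and Thy1 were not among them, and Tcf7 was under the filter, so the count leaves out these T-cell genes. Cd6, a scavenger receptor of T cells, was at 3.29, 3.83, 4.32 and 4.07 RPKM in MPP4 and 36.5, 23.3, 27.0 and 27.9 RPKM in CLP (2.59 ± 0.14, limma adjusted p = 2.83e-11). Lck, the kinase of the T-cell receptor, was at 27.3 to 34.0 RPKM in MPP4 and 63.7 to 86.3 RPKM in CLP (1.32 ± 0.11). Zap70 was at 0.241 to 0.774 RPKM in MPP4 and 2.71 to 3.56 RPKM in CLP (1.45 ± 0.16). For Cd6, Lck and Zap70 every CLP library lay above every MPP4 library. Notch1, the receptor that directs progenitors to the T lineage, rose by 0.89 ± 0.14 and its relative Notch2 fell by 0.45 ± 0.10; Notch1 was singled out after its values were seen. Rora, a factor of innate lymphoid cells, fell by 0.78 ± 0.12 from a level of 1.19 to 1.43 RPKM.

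Plasmacytoid dendritic cell genes rose in 16 of 25 kept members and fell in 1, Lair1, with a median of 0.69. The list shares Cox6a2, Blnk, Irf8 and Spib with the other lymphoid lists or with the ranking above, and its summed level was 431 to 544 RPKM in mutant MPP4 and 1291 to 1486 RPKM in mutant CLP. Cox6a2, a respiratory chain subunit of muscle that also marks plasmacytoid dendritic cells (chr7:128205435-128206366), was at 6.67, 16.0, 9.28 and 8.78 RPKM in MPP4 and 264, 295, 307 and 225 RPKM in CLP. Its change was 4.67 ± 0.20 (limma adjusted p = 2.79e-12), against 3.00 in wild type. In bulk libraries of sorted cells, more cells of a type and more RNA per cell cannot be told apart, here and for every cell-type list below. Of the monocyte and macrophage genes, 4 of 27 rose and 6 fell, beside 8.16% higher and 16.6% lower over all genes tested. Mpeg1, a perforin-like protein of macrophages, went from 5.14 to 12.9 RPKM in MPP4 to 69.2 to 124 RPKM in CLP, and Tlr4 fell by 1.45 ± 0.16. The 6 that fell became 1 without CLP replicate 2, 2 without MPP4 replicate 3, and 3 without MPP4 replicate 1 or CLP replicate 1 or in a fit on the 8 libraries alone. MHC class II and conventional dendritic genes rose in 5 of 18 and fell in 0, with 3 rises without MPP4 replicate 1 or CLP replicate 3 and 1 fall without MPP4 replicate 2 or CLP replicate 4; H2-Ob, a chain that tunes peptide loading, rose by 0.97 ± 0.13. Mature B and plasma cell genes rose in 3 and fell in 2 of 8, with 1 fall without MPP4 replicate 3, CLP replicate 1 or CLP replicate 2.

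**Figure D2:**
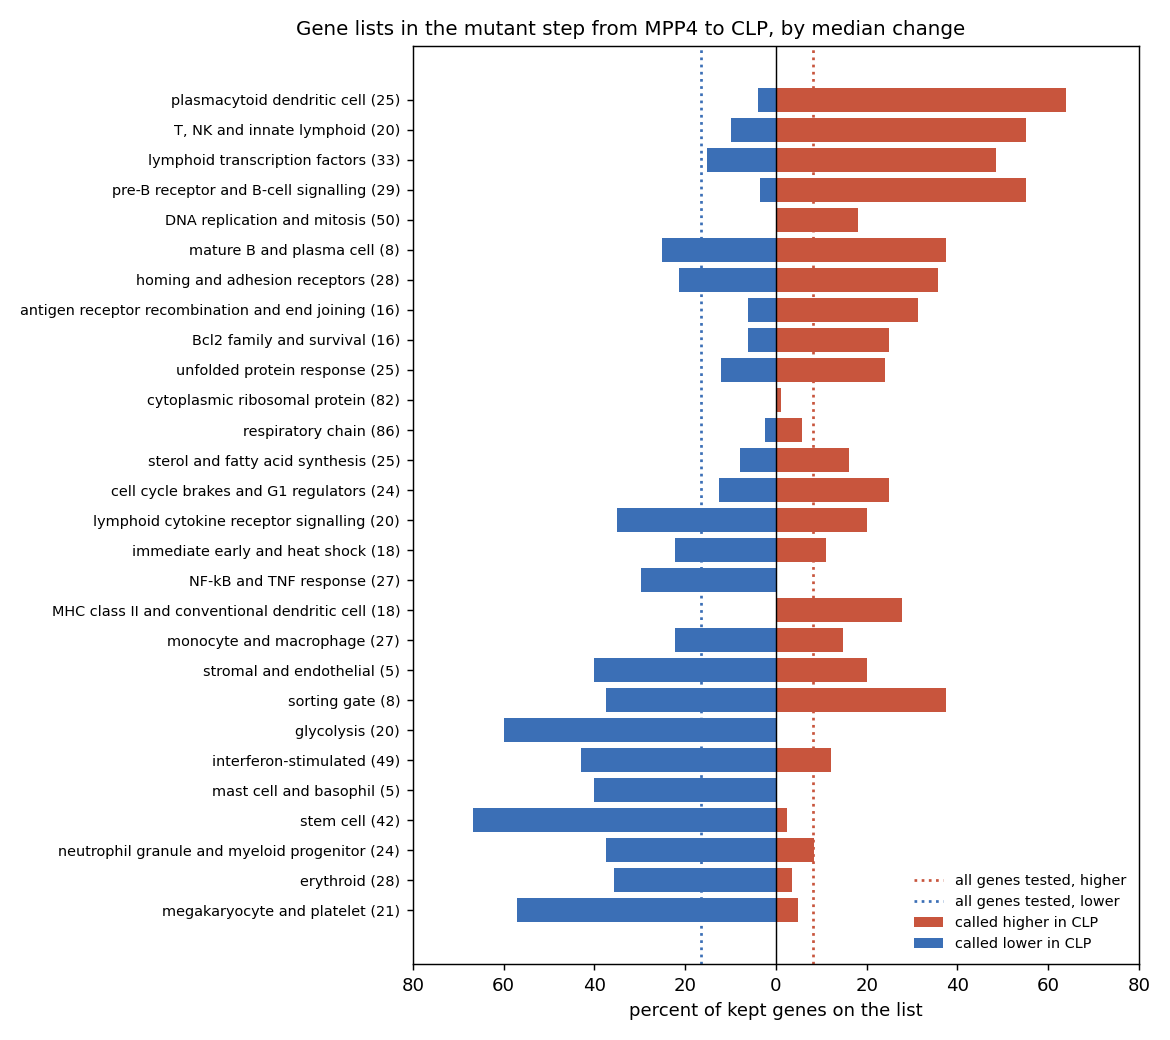
Share of the kept members of each gene list that were called higher (right) and lower (left) in mutant CLP than in mutant MPP4, with the number of kept members in brackets and the shares over all genes tested, 8.16% higher and 16.6% lower, as dotted lines. Plasmacytoid dendritic, lymphoid transcription factor, B-cell and T-cell lists extend to the right of the dotted line, and the stem cell, glycolysis and megakaryocyte lists to the left.

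E-boxes, the motif bound by the B-lineage factor E2A, were looked for in promoters. Of the 23 genes in the plot of the most changed genes, 15 had a promoter in the table, and 6 of these 15 held an E-box, 4 of 7 among the risers and 2 of 8 among the fallers. The 5 promoters shown were picked because they hold the motif, 4 of them from those 6 (Siglech, Blnk, Vpreb2 and Hlf) and that of Rag1 in addition. Each line gives the 250 bases before the start site in the RefSeq promoter table (GRCm38.p6), 5′ to 3′ on the strand of the gene, with E-boxes in capitals. The E-box was searched as CAGCTG, which reads alike on both strands, and as CAGGTG, which reads CACCTG on the other strand.
Siglech (chr7:55767934-55768183, plus strand): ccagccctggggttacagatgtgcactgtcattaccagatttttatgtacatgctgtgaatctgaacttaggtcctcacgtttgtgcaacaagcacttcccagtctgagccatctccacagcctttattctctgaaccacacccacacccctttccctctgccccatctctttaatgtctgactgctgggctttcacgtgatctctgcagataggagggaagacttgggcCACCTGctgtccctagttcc
Blnk (chr19:40994222-40994471, minus strand): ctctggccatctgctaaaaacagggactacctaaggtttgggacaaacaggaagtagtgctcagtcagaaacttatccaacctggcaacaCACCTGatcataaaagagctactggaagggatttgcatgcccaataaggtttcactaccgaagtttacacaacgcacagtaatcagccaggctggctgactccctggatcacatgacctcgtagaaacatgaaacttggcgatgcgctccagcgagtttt
Vpreb2 (chr16:17980315-17980564, plus strand): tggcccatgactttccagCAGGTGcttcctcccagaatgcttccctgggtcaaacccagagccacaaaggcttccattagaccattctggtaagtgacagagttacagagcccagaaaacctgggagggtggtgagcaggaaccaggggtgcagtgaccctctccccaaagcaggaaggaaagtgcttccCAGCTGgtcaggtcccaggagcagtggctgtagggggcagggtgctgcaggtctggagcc
Rag1 (chr2:101649533-101649782, minus strand): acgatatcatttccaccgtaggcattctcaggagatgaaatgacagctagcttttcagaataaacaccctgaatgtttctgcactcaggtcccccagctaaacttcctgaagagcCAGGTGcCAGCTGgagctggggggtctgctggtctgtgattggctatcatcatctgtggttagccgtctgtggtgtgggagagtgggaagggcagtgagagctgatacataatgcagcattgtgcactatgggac
Hlf (chr11:90390918-90391167, minus strand): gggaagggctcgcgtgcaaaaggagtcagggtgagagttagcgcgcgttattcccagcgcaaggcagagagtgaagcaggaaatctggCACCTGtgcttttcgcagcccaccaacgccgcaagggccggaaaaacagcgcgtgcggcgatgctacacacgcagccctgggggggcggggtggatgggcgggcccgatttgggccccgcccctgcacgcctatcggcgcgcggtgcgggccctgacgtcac
The E-box lay 20 to 15 bases before the start in Siglech, 160 to 155 in Blnk, 135 to 130 and 128 to 123 in Rag1, and 232 to 227 and 60 to 55 in Vpreb2. Hlf, a stem cell factor that fell, had one as well, 162 to 157 bases before its start. Among 8979 kept genes with a promoter in the table, 23.4% held at least 1 such E-box, against 27.2% of 724 genes called higher and 25.5% of 1470 called lower. Among genes that changed by at least 1 on the log2 scale the shares were 35.8% of 162 risers and 29.7% of 337 fallers. The ETS motif ACTTCCGG (on the other strand CCGGAAGT) was found in 6.55% of all these promoters, 4.56% of those called higher and 3.40% of those called lower. It was in 0 of the 162 risers and 6 of the 337 fallers by at least 1 on the log2 scale. The EBF motif, TCCC and GGGA with any 2 bases between them, was rare, at 0.791% of all promoters, 1.52% of those called higher and 1.09% of those called lower. The shares were not tested, and a match of letters is not evidence of binding.

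Stem cell genes fell in 28 of 42 kept members and rose in 1, with a median of -0.90, and their summed level was 1721 to 1910 RPKM in MPP4 and 723 to 862 RPKM in CLP. Hlf, a factor of stem cell maintenance (chr11:90336535-90390917), was at 36.6, 37.3, 40.4 and 45.0 RPKM in MPP4 and 1.84, 0.763, 1.43 and 2.96 RPKM in CLP. It was abundant in all MPP4 libraries and close to the filter in all CLP libraries. Hlf fell by 3.95 ± 0.17 (limma adjusted p = 2.88e-12; wild type -2.98). Lmo2, a scaffold of stem cell transcription factor complexes, was at 275 to 344 RPKM in MPP4 and 65.6 to 84.2 RPKM in CLP and fell by 2.05 ± 0.10. Meis1, a homeobox factor of stem cells, fell by 1.17 ± 0.09, and Procr, the endothelial protein C receptor that marks stem cells, by 2.66 ± 0.21; these 2 were singled out after their values were seen. Mn1, a transcriptional cofactor, was the member that rose, from 7.56 to 9.43 RPKM in MPP4 to 12.1 to 13.4 RPKM in CLP. Other genes at the low end of the ranking were Rab38, a small GTPase (-4.04 ± 0.22), Mc5r, a melanocortin receptor (-3.93 ± 0.23), Gas6, a ligand of TAM receptors (-3.58 ± 0.14), and Muc13, a membrane mucin (-3.23 ± 0.17).

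Megakaryocyte and platelet genes fell in 12 of 21 kept members and rose in 1 (median -1.21). Without MPP4 replicate 1 the count of falls was 7 and the median -0.80, and the 1 rise was not called without MPP4 replicate 2 or 3. The summed level of the list was 1075 RPKM in MPP4 replicate 1, against 476 to 517 RPKM in the other MPP4 and 284 to 339 RPKM in the CLP. Gng11, a G-protein subunit of platelets (chr6:4003987-4008445), was at 15.6, 11.04, 7.83 and 7.55 RPKM in MPP4 and 0.392, 0.222, 0.161 and 0.288 RPKM in CLP. Its level fell in every CLP library to below 1 RPKM (-3.13 ± 0.20, limma adjusted p = 3.26e-10; wild type -1.47). Itga2b, a platelet integrin, went from 43.1, 2.46, 3.86 and 0.930 RPKM in MPP4 to 0.355 to 1.29 RPKM in CLP, and its call was lost when any library other than MPP4 replicate 2 or 4 was left out.

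Erythroid genes fell in 10 of 28 kept members and rose in 1 (median -1.10), but the falls rested in part on 1 library. Their summed level was 2542, 5290, 2866 and 3520 RPKM in MPP4 and 249.3, 3054, 2259 and 5202 RPKM in CLP, so that only CLP replicate 1 stood below the MPP4 range by a wide margin. Without that library 5 members fell and the median was -0.54, and 6 fell in a fit on the 8 libraries alone. The haemoglobin gene Hba-a2, singled out after its values were seen, was at 891, 1880, 931 and 1163 RPKM in MPP4 and 23.5, 1177, 868 and 1972 RPKM in CLP. Nfe2 and Car2 were called without that library too. Nfe2, an erythroid and platelet factor, was at 97.1 to 105 RPKM in MPP4 and 23.1 to 29.8 RPKM in CLP (fell by 1.93 ± 0.09), and Car2, a carbonic anhydrase, at 281 to 367 RPKM and 21.6 to 78.5 RPKM (fell by 2.73 ± 0.27). Tfrc, the transferrin receptor that also marks dividing cells, was the member that rose, from 10.7 to 17.1 RPKM to 40.2 to 50.6 RPKM. In wild type 5 erythroid members fell and 1 rose, and the summed level was 677 to 3251 RPKM in MPP4 and 1198 to 1790 RPKM in CLP. The mutant step minus the wild-type step was negative for 26 of 28 members with a median of -0.88, which was -0.34 without mutant CLP replicate 1; 0 members were called and 2 had an unadjusted p under 0.05 (limma).

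Neutrophil granule and myeloid progenitor genes fell in 9 of 24 kept members and rose in 2 (median -0.97). The median rested on single libraries: it was -0.03, with 11 of 24 positive, without CLP replicate 1, -0.36 without MPP4 replicate 2, -1.48 without CLP replicate 2 and -1.58 without CLP replicate 4. The summed level of the list was 2063 to 3870 RPKM in MPP4 and 1791 to 4111 RPKM in CLP, so the sums overlapped. Prtn3, the granule protease proteinase 3, was at 113, 67.6, 114 and 117 RPKM in MPP4 and 7.09, 10.2, 6.47 and 13.1 RPKM in CLP. Hk3, a hexokinase of myeloid cells, was at 45.5, 46.0, 52.9 and 53.5 RPKM in MPP4 and 2.82, 4.18, 3.17 and 12.4 RPKM in CLP. CLP replicate 4 was highest among the CLP for both genes and still below all MPP4. Prtn3 fell by 3.36 ± 0.24 and Hk3 by 3.13 on the log2 scale. Csf3r, the G-CSF receptor, fell by 2.47 ± 0.22, and Cebpa, the factor that drives granulocyte and monocyte fate, by 1.88 ± 0.20; these 2 were singled out after their values were seen. The 2 members that rose were Plac8, from 439 to 579 RPKM in MPP4 to 970 to 1315 RPKM in CLP (1.18 ± 0.13), and Clec12a, a lectin receptor (1.12 ± 0.15). Of 16 mast cell and basophil genes 5 were among the deposited genes, and 2 of these 5 fell. They were Kit, whose direction was set by the sort, and Gata2, a factor of stem and mast cells that fell by 3.09 ± 0.19. Of the stromal and endothelial genes 2 of 5 fell, among them Emcn, a sialomucin of endothelium and stem cells (by 1.56 ± 0.22), with 1 fall without MPP4 replicate 1, 2 or 3 or CLP replicate 1, 2 or 3, and Pecam1, an adhesion molecule of endothelium and leukocytes, rose by 0.77 ± 0.12.

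Genes of DNA replication and mitosis were mostly a little higher in CLP. Of 50 kept members 49 were positive (44 without MPP4 replicate 4), 9 were called higher and 0 lower, and the list's median was 0.30. In the wild-type step 0 members were called (limma, 1 at an unadjusted p under 0.05), with a median of 0.06. The difference of the 2 steps was positive in 48 of 50 members with a median of 0.25, and 0 were called (limma, 1 at an unadjusted p under 0.05). The summed level of the list was 3511, 3671, 2808 and 2939 RPKM in mutant MPP4 and 3850 to 4271 RPKM in mutant CLP. In wild type it was 3465 to 3769 RPKM in MPP4 and 3592 to 4262 RPKM in CLP. Only mutant MPP4 replicates 3 and 4 lay below the wild-type MPP4 range. Rrm2, a subunit of ribonucleotide reductase, was at 71.9, 115, 66.8 and 83.6 RPKM in MPP4 and 161, 157, 164 and 139 RPKM in CLP. Its CLP values were close together and all above the MPP4 (0.90 ± 0.23, limma adjusted p = 0.00527). Ccne1 and Ccne2, the cyclins that start DNA synthesis, rose by 0.72 ± 0.17 and 0.81 ± 0.20. The number of calls moved to 5 without MPP4 replicate 3, 4 after quantile normalization, 15 with library weights and 20 in a fit on the 8 libraries alone. Among the cell cycle brakes and G1 regulators 6 of 24 rose and 3 fell, beside 8.16% higher and 16.6% lower over all genes tested. The falls were 5 without CLP replicate 4, with library weights or with the replicate block, and 6 with sex and age terms. Ccnd3, the D-type cyclin of lymphoid progenitors, was at 34.9 to 38.4 RPKM in MPP4 and 78.4 to 111 RPKM in CLP (1.26 ± 0.09), Cdkn1a (p21), an inhibitor of cyclin-dependent kinases, rose by 2.03 ± 0.18, and Tob1, an antiproliferative protein, fell by 1.22 ± 0.14.

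Interferon-stimulated genes fell in 21 of 49 kept members and rose in 6 (median -0.36), and their summed level was 2870 to 3350 RPKM in MPP4 and 2427 to 2678 RPKM in CLP. The falls were led by the Ifitm family, membrane proteins that block virus entry and are high in stem cells. Ifitm1 was at 212, 188, 208 and 212 RPKM in MPP4 and 25.7, 25.7, 23.0 and 26.2 RPKM in CLP, with no overlap. It fell by 2.98 ± 0.22 (limma adjusted p = 2.63e-09; wild type -2.88), Ifitm3 fell by 1.71 and Ifitm2 fell by 1.29 ± 0.11. The 6 that rose were Bst2 (tetherin), Ly6e, Gbp3 and the antigen-processing genes Psmb8, Psmb9 and Tap1. Psmb8, an immunoproteasome subunit, was at 331 to 385 RPKM in MPP4 and 434 to 515 RPKM in CLP (0.42 ± 0.10), and Bst2 rose by 0.52 ± 0.11. NF-kB and TNF response genes fell in 8 of 27 and rose in 0 (1 without MPP4 replicate 1 or CLP replicate 1). Ccl3, an inflammatory chemokine, was at 31.9, 41.3, 45.7 and 46.1 RPKM in MPP4 and 4.05, 8.71, 9.57 and 10.2 RPKM in CLP (fell by 2.26 ± 0.27), and Ier3 fell by 1.72 ± 0.23.

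Receptors of homing and adhesion rose in 10 of 28 kept members and fell in 6 (median 0.24). Selplg, the ligand of selectins, was at 86.8 to 95.7 RPKM in MPP4 and 161 to 185 RPKM in CLP, and Itga4, an integrin chain of marrow retention, at 20.3 to 22.6 RPKM and 35.8 to 54.5 RPKM. Both separated the populations without overlap. Cd93 rose by 1.03 ± 0.10. Cxcr4, the receptor for the marrow chemokine CXCL12, rose by 0.85 ± 0.23; it was singled out after its values were seen. Among the members that fell were S1pr2, a sphingosine phosphate receptor (by 1.26 ± 0.15), Itga6 (by 1.58 ± 0.20) and Esam, an adhesion molecule of stem cells (by 1.83 ± 0.31).

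Glycolysis genes were lower in CLP in 20 of 20 kept members, 12 of them called, with a median of -0.35. Leaving out 1 library gave 10 or 11 calls and 0 to 3 positive values, 3 of them without CLP replicate 1, median-ratio scaling gave 10 calls and 3 positive values, and a fit on the 8 libraries alone gave 9 calls. Aldoa, the aldolase of the pathway, was at 211, 214, 244 and 244 RPKM in MPP4 and 90.4, 110, 122 and 121 RPKM in CLP (fell by 1.05 ± 0.10, limma adjusted p = 8.15e-08). Pkm, pyruvate kinase, was at 255 to 280 RPKM in MPP4 and 174 to 220 RPKM in CLP, and Slc2a3, a glucose transporter, fell by 0.79 ± 0.12. In wild type 11 members were called lower, with a median of -0.33. Of the cytoplasmic ribosomal protein genes 1 of 82 was called, Rpl3l, a paralogue best known from muscle, which rose by 1.80 ± 0.19 from 0.477 to 1.05 RPKM in MPP4. The others were not called, 73 of 82 were positive, and the median was 0.11. The positive count and the median became 49 and 0.01 after quantile normalization, 47 and 0.01 without CLP replicate 3, 59 and 0.04 without MPP4 replicate 1, and 79 and 0.18 without CLP replicate 1. Against wild type, where 79 of 82 were negative with a median of -0.21, the difference of the steps was positive in 82 of 82 members with a median of 0.29 (79 of 82 and 0.15 after quantile normalization), and 0 were called (limma, 0 at an unadjusted p under 0.05). Respiratory chain genes were called in 7 of 86, 5 higher and 2 lower, shares under the 8.16% higher and 16.6% lower over all genes tested. The higher count was 2 without CLP replicate 2, 3 after quantile normalization or without MPP4 replicate 1, 2 or 3 or CLP replicate 3, 14 under median-ratio scaling and 15 with the replicate block. The lower count was 0 without MPP4 replicate 2, 3 or 4 or CLP replicate 1 or 2, and 1 without CLP replicate 4. Cox6a2 (above) and Sdhb, a subunit of complex II at 168 to 174 RPKM in MPP4 and 199 to 223 RPKM in CLP, were among those that rose.

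Genes of survival and stress were called in both directions, and their shares can be read against the 8.16% higher and 16.6% lower over all genes tested. Of the Bcl2 family and survival genes 4 of 16 rose and 1 fell, with 2 falls without MPP4 replicate 1 or CLP replicate 4. Bcl2, which keeps lymphoid progenitors alive, was at 18.6 to 27.1 RPKM in MPP4 and 27.0 to 42.6 RPKM in CLP and rose by 0.66 ± 0.13. Bbc3 (Puma), which triggers cell death after p53 activation, was at 5.19, 6.88, 6.12 and 8.59 RPKM in MPP4 and 1.58, 1.04, 1.02 and 1.71 RPKM in CLP. It fell in every CLP library below every MPP4 library (by 1.71 ± 0.18, limma adjusted p = 5.79e-07). Unfolded protein response genes rose in 6 of 25 and fell in 3, with Herpud1, a factor of protein degradation in the endoplasmic reticulum, rising by 0.98 ± 0.12 and Trib3, a target of the stress factor CHOP, falling (-1.51 ± 0.25). Sterol and fatty acid synthesis genes rose in 4 of 25 and fell in 2, among them Fdps, an enzyme of the mevalonate pathway, which rose by 0.65 ± 0.12, and Scd2, a desaturase, which fell by 0.36 ± 0.10. The sterol rises were 2 without MPP4 replicate 2, MPP4 replicate 3 or CLP replicate 2, and the falls 1 without CLP replicate 2 or 3. Immediate early and heat shock genes rose in 2 of 18 (1 without MPP4 replicate 1 or CLP replicate 2) and fell in 4, a count of falls that became 2 without MPP4 replicate 2, MPP4 replicate 3, CLP replicate 1 or CLP replicate 4; Jun rose by 1.82 ± 0.38.

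The wild-type step was the reference for whether the mutant cells caught up or lagged. In wild type 1506 of the same 11082 genes (13.6%) were called, 548 (4.94%) higher and 958 (8.64%) lower. The comparison had 3 libraries a population against 4 in the mutant, so the number of calls does not compare the size of the steps. Of the genes called in the mutant step 48.5%, and of those called in wild type 88.3%, were called in both, 1330 genes, and all of these had the same sign. Over all genes tested the 2 steps correlated at r = 0.883, a description across genes, which are not independent. Among the 1506 genes called in wild type the median absolute change was 0.79 in the mutant and 0.73 in wild type, and 856 changed more in the mutant. The direct test, the mutant step minus the wild-type step, called 0 genes (0% of genes tested; limma, 433 at an unadjusted p under 0.05, against 554 that 5% of the genes would give). In simulated data of this design the test recovered 25 of 100 genes that differed by 0.5 and 59 of 100 that differed by 1 on the log2 scale. The simulated noise was independent between genes and libraries, which that of the real libraries was not, so the recovery in the real data is not known.

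**Figure D3:**
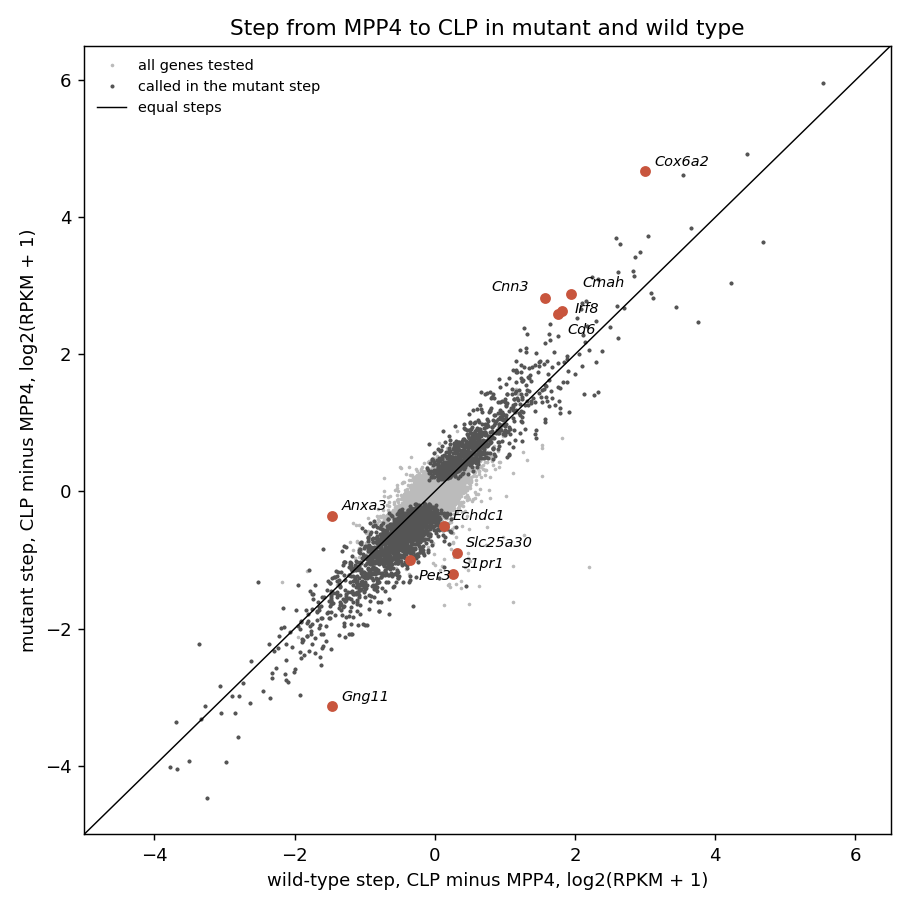
Mutant step against wild-type step, both CLP minus MPP4 on log2(RPKM + 1), for the 11082 genes tested, with a line of equal steps. Dark points are the 2744 genes called in the mutant step, and the 11 labelled genes are among the 6 with the smallest p in each direction in the test of the difference, in which 0 genes were called.

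The 6 genes with the smallest p for the difference in each direction included no call, and 11 of these 12 are given here. Cox6a2, Cnn3, Gng11 and Slc25a30 each had a limma adjusted p of 0.0814. Cox6a2 changed by 1.67 ± 0.31 more in the mutant than in wild type, where it went from 25.5, 32.4 and 43.5 RPKM in MPP4 to 221, 302 and 297 RPKM in CLP. Cnn3, an actin-binding calponin, had a difference of 1.24 ± 0.23: mutant MPP4 were at 32.5 to 46.5 RPKM and wild-type MPP4 at 75.3 to 99.2 RPKM, while CLP were at 251 to 284 and 257 to 290 RPKM. In both genes the genotypes met in CLP from different levels in MPP4. Gng11 (-1.67 ± 0.30) differed in the other direction, from a higher mutant MPP4 level. Slc25a30, a mitochondrial carrier, was at 5.64, 3.88, 4.49 and 4.07 RPKM in mutant MPP4 and 1.46, 2.18, 1.70 and 2.58 RPKM in mutant CLP. In wild type it was at 3.65, 2.58 and 2.58 RPKM in MPP4 and 3.67, 4.48 and 3.52 RPKM in CLP, higher on average but with overlapping ranges. The difference of its steps was -1.21 ± 0.21. S1pr1, the receptor that lets lymphocytes leave tissue, was at 4.49, 6.07, 6.45 and 7.34 RPKM in mutant MPP4 and 2.004, 4.11, 0.803 and 2.12 RPKM in mutant CLP, against 2.52 to 3.78 RPKM and 3.90 to 4.14 RPKM in wild type (-1.46 ± 0.32, limma adjusted p = 0.378). The others were Anxa3, Cmah, Cd6 and Irf8 upward, at 1.10, 0.93, 0.83 and 0.81 on the log2 scale, and Per3 and Echdc1 downward, at -0.65 and -0.63, with limma adjusted p from 0.378 to 0.858.

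Leaving out 1 library gave calls in the test of the difference. Without wild-type MPP4 replicate 1 there were 2, among them Slc25a30 (-1.34). Without mutant MPP4 replicate 2 it was Cox6a2 (1.89, limma adjusted p = 0.00911), without mutant CLP replicate 2 S1pr1 (-1.71, limma adjusted p = 0.0294), and without mutant CLP replicate 4 Slc25a30 (-1.30, limma adjusted p = 0.0435).

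At the start of the step, 23 genes (0.208% of genes tested) differed between mutant and wild-type MPP4, 10 higher (0.0902%) and 13 lower (0.117%) in the mutant. The 13 lower genes were Arpp21, Blk, Blnk, Camkv, Cd6, Cmah, Cnn3, Cox6a2, Drc7, Irf8, Myo7a, Rasal1 and Unc93b1. They include B-lineage and dendritic genes named above and Unc93b1, which carries nucleic acid-sensing Toll-like receptors to endosomes. The 10 higher genes included Gas6, Gng11, Hlf, Nfic, Prkcdbp, Scarf1, Slc27a6, Tmem120a and Tob1. Of these 9, Hlf is on the stem cell list, Gng11 on the megakaryocyte list and Tob1 on the list of cell cycle brakes. These genes were chosen on the MPP4 libraries, which also enter both steps, so their steps are given as a description. All 13 lower genes rose in the mutant step, with a median of 2.75 against 1.82 in wild type, and all 10 higher genes fell, with a median of -2.31 against -1.33. The number of such genes was 3 to 180 under other settings of the fit. It was 14 without wild-type replicate 2, 7 without wild-type replicate 3, 11 without mutant replicate 1 and 15 without mutant replicate 4.

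The gap in CLP is measured on libraries that did not enter the gap in MPP4, although the mutant CLP libraries entered the filter and all CLP libraries entered the estimate of spread behind the 23 calls, which were 3 in a fit on the MPP4 libraries alone. In CLP 0 of 11082 genes (0%) were called between genotypes (limma; 499 at an unadjusted p under 0.05), and 5 were called without mutant CLP replicate 2. The median gap of the 13 lower genes was -1.01 in MPP4 and -0.18 in CLP, and that of the 10 higher genes 0.92 in MPP4 and -0.0035 in CLP. Several higher genes were so low in CLP that the log2(RPKM + 1) scale leaves little room for a gap. Mean RPKM in wild-type and mutant CLP was 0.45 and 0.65 for Gas6, 0.41 and 0.27 for Gng11, 0.35 and 0.30 for Prkcdbp, and 0.34 and 0.32 for Slc27a6. Nfic (10.8 and 10.6), Tmem120a (8.94 and 10.2) and Tob1 (5.84 and 6.78) were well above that level. The gap was smaller in CLP for 23 of 23 genes, which the choice of genes on the MPP4 gap favours. The ranges of the genotypes overlapped in CLP for 9 of the 13 and for 10 of the 10. Cox6a2 averaged 33.8 RPKM in wild-type and 10.2 RPKM in mutant MPP4, and 273 RPKM in both genotypes of CLP. Irf8 averaged 48.8 and 28.2 RPKM in MPP4 and 178 RPKM in both genotypes of CLP, and Hlf 19.9 and 39.8 RPKM in MPP4 and 1.62 and 1.75 RPKM in CLP. These 3 genes differed between genotypes in MPP4 and by 0.03 or less on the log2 scale in CLP, with a sign that depended on scaling or on single libraries.

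Blk kept most of its gap on the log2(RPKM + 1) scale, at -1.18 in MPP4 and -0.99 in CLP. That scale understates the change of low genes, and with a pseudocount of 0.1 the MPP4 gap was -1.60. Mean RPKM of Blk was 4.57 in wild-type and 1.38 in mutant MPP4, and 70.4 and 33.3 in CLP. Single wild-type libraries were at 5.79, 2.51 and 5.42 RPKM in MPP4 and 95.8, 41.0 and 74.4 RPKM in CLP. Mutant CLP were at 26.4 to 37.9 RPKM, so that every mutant CLP library lay below every wild-type one. The difference in CLP was -0.99 ± 0.24 on the log2 scale (unadjusted p = 0.000539, limma adjusted p = 0.713, with no call). Myo7a (-0.59), Camkv (-0.38) and Drc7 (-0.35) also had an unadjusted p under 0.05 in CLP, and none was called. The other 19 of the 23 genes had a larger p. Myo7a also kept much of its MPP4 gap of -0.93, and it averaged 6.36 RPKM in wild-type and 3.11 RPKM in mutant HSC. In Myo7a, Camkv and Blnk, as in Blk, every mutant CLP library lay below every wild-type one.

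**Figure D4:**
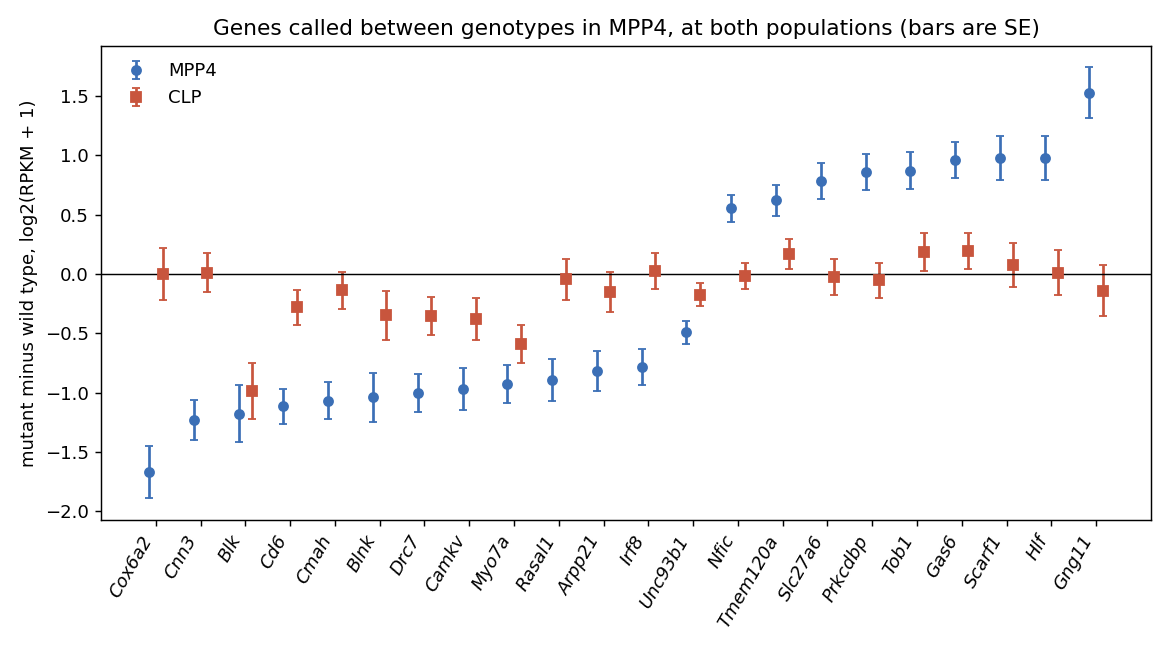
Difference between mutant and wild type on log2(RPKM + 1) for 22 of the 23 genes called in MPP4, in MPP4 (circles) and in CLP (squares), with bars of 1 SE from the fit. The genes run from the most negative to the most positive MPP4 difference. The CLP values of the 10 genes higher in mutant MPP4, 9 of them shown, have a median of -0.0035, and Blk is at -0.99 in CLP. Several of these 10 genes were under 1 RPKM in CLP in both genotypes, where this scale understates a gap.

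Each library was also placed on the wild-type step as a whole, where 0 is the mean of wild-type MPP4 and 1 the mean of wild-type CLP over the 1506 genes called in that step. Wild-type libraries were scored on an axis built without them, although the genes were chosen with them. That choice favours mutant positions between 0 and 1, so mutant CLP under 1 need not mean a smaller step. Mutant MPP4 lay at -0.186, -0.143, -0.173 and -0.220, below 0 in all 4, and wild-type MPP4 at -0.0712, 0.0041 and 0.122. Mutant CLP lay at 0.925, 0.994, 0.896 and 0.721, and wild-type CLP at 0.968, 1.04 and 0.898. The mutant MPP4 did not overlap with wild type, and in CLP only mutant replicate 4, and replicate 3 by a small margin, lay below the wild-type range. Means were -0.181 ± 0.0321 (SD, n = 4) and 0.884 ± 0.116 (SD, n = 4) for the mutant. For genes that rise in wild type (548) mutant CLP lay at 0.863, 0.991, 0.872 and 0.752, and 3 of the 4 were below the wild-type CLP range of 0.888 to 1.02. For genes that fall (958) mutant CLP lay at 0.974, 0.996, 0.914 and 0.696, and 1 of the 4, replicate 4, was below the wild-type range of 0.816 to 1.06. The label of that library gives an age of 10 weeks, against 12 weeks for the MPP4 library of the same number. The part of age in its position was not tested.

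**Figure D5:**
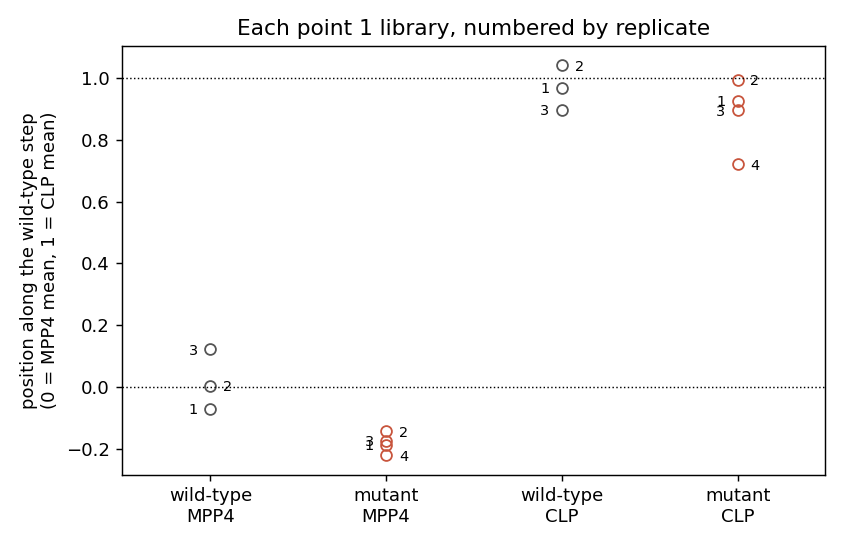
Position of each MPP4 and CLP library on the wild-type step, with 0 at the mean of wild-type MPP4 and 1 at the mean of wild-type CLP; each point is 1 library, numbered by replicate. Mutant MPP4 libraries lie between -0.220 and -0.143, and mutant CLP libraries between 0.721 and 0.994.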

How the data were processed

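RNA of sorted bone marrow progenitors was measured in 21 libraries. Per the labels' protocols, cells were sorted into lysis buffer, cDNA was made with the SMART-seq v4 kit and libraries with the NexteraXT kit; STAR and the genome mm10 are named in the submitters' processing notes. The STAR version, the counting, the annotation and the use of strand are not given in the sources used, so overlapping and antisense genes cannot be told apart. The authors deposited RPKM for 11628 genes; 16 symbols that a spreadsheet had turned into dates were restored through their Entrez IDs, and 11619 IDs matched RefSeq.

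Values were taken to log2(RPKM + 1), filtered as the report says, and fitted with limma 3.58.1 (R 4.3.3, variance trend, 6 group means over all 21 libraries, two-sided). On simulated data with this design, 58 of 100 changes of 0.5 and 94 of 100 changes of 1 on the log2 scale were recovered in the mutant step, with 9 false calls. The simulation drew normal noise independently for each gene and library, so it does not hold deviations shared by a library. It changed only 100 genes of each size, while 24.8% of genes were called in the real mutant step. Recovery and false calls in the real data are therefore not known. Same-numbered mutant libraries deviated together at r = 0.107 to 0.414 and different-numbered ones at -0.345 to 0.224, and the 3 wild-type pairs at 0.229 to 0.285, so the numbers were read as pairs in an alternative fit with the replicate as a block. The ages of the libraries numbered 4 differ, which goes against reading that number as 1 mouse.

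Named genes were the 12 largest changes in each direction among called genes with no overlap, up to 3 members a direction with the smallest p in each list, the 6 smallest p in each direction of the step difference, every gene called between genotypes, and Etv6 with the gate genes. Other members named were chosen after their values were seen. The members and lists were chosen with earlier results of these data known. Alternatives were other pseudocounts, filters, scalings, library weights, sex and age terms, fewer groups and leaving out each library. Library pairs with identical values numbered 0. Some genes and their results are not reported here. Promoters came from a RefSeq table of GRCm38.p6.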

Additional observations from a re-analysis of the deposited data

Results flagged for a closer look

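In 15 of 358 groups of 4 mutant libraries 1 library lay far from the other 3, by Dixon's test at the 95% level; about 1 in 20, or 18 groups, is what chance gives. The groups were the RPKM of the genes of the naming rule, not all of which the report describes, and the summed RPKM of the lists.

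In mutant MPP4 replicate 1 the megakaryocyte and platelet list summed to 1075 RPKM against 476 to 517 RPKM in the other MPP4. Also high in that library were Slamf1 at 3.20 RPKM (others 1.13 to 1.34), Ier3 at 24.4 RPKM (others 19.4 to 20.1), Itgax at 2.91 RPKM (others 2.497 to 2.509) and Selplg at 95.7 RPKM (others 86.8 to 88.2). In MPP4 replicate 2 Prtn3 was low at 67.6 RPKM (others 113 to 117). In MPP4 replicate 4 Ccnd3 was low at 34.9 RPKM (others 37.9 to 38.4), and Cdkn1c at 1.70 RPKM (others 1.29 to 1.33) and Itga4 at 22.6 RPKM (others 20.3 to 20.7) were high.

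In mutant CLP replicate 3 Arpp21 was high at 19.8 RPKM (others 14.6 to 15.2), as was Echdc1 at 3.91 RPKM (others 3.71 to 3.74), while Ifitm1 at 23.0 RPKM (others 25.7 to 26.2) and Ikzf1 at 49.0 RPKM (others 51.9 to 52.2) were low. In mutant CLP replicate 4 the megakaryocyte and platelet list summed to 339 RPKM (others 284 to 287), and Myct1 stood at 0.982 RPKM (others 0.167 to 0.243).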

How the results depend on the processing

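The mutant step gave 2042 to 3362 calls over all alternatives and 2291 to 2777 when 1 library was left out. The replicate block gave 3362 calls (2730 of them among the 2744) in the mutant step, 1992 in the wild-type step and 0 in their difference, and changed no call of a named gene. Of 169 genes of the naming rule or singled out, 146 kept direction and call in the mutant step under every alternative. The test of the difference gave 0 to 2 calls when 1 library was left out, and the genotype test in CLP 0 to 5. In MPP4 the 23 calls became 180 when libraries were weighted, 47 with sex and age terms, 12 and 3 at pseudocounts of 0.5 and 0.1, 3 with only the compared groups, and 7 to 20 with 1 library left out; the cause was not tested. The change of Flt3 turned to 0.0681 under median-ratio scaling and 0.0148 without both libraries numbered 4, and lay at -0.0367 to 0.0171 with 1 library left out.

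Between genotypes in CLP, where no gene was called, 9 differences near 0 changed sign; the cause was not tested. Hlf was at -0.033 and -0.0041 with pseudocounts of 0.1 and 0.5, -0.0117 with sex and age terms and -0.186 without both libraries numbered 4. Cox6a2 was at -0.0038 under median-ratio scaling and with sex and age terms, and after quantile normalization Cox6a2 was at -0.0311, Cnn3 at -0.0465, Irf8 at -4e-04 and Slc27a6 at 0.042. Cnn3 was at -0.0119 without both libraries numbered 4, and with library weights Nfic was at 0.0519 and Scarf1 at -0.0067. With 1 library left out the ranges were -0.186 to 0.204 for Hlf, -0.143 to 0.0904 for Cox6a2, -0.0266 to 0.0593 for Cnn3, -0.159 to 0.159 for Irf8, -0.113 to 0.0986 for Slc27a6, -0.132 to 0.108 for Nfic, -0.0655 to 0.250 for Scarf1, -0.168 to 0.114 for Rasal1 and -0.206 to 0.0471 for Prkcdbp.

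Limits are the unknown depth, 3 or 4 mice a group, age that differs between the populations in mutant libraries numbered 4, and bulk RNA of sorted cells.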
